A study of Homo sapiens with 18 samples.

Results

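The comparison set A375 cells kept for 48 h in 0.63 µM IMD-0354 against A375 cells left untreated for 48 h. It rests on 3 libraries of each group, 6 of the 18 libraries of the series, chosen by dose and time and not by any measured value. Of the 60504 genes listed, 14936 were expressed, taken as at least 1 TPM (transcripts per 1000000) in at least 3 of the 18 libraries, and all of these were tested. A375 is a long-established human cell line grown from a melanoma with an activated BRAF kinase. IMD-0354 is a compound described to block IKKβ, the kinase that releases NF-kB from its inhibitors. The other 4 groups were cells given 0.32, 0.63 or 1.25 µM for 24 h and untreated cells at 24 h, with 3 libraries each. RNA was read from its 3' ends. No vehicle is named for untreated cells in the labels. They also do not say whether each replicate was its own culture, so p-values here reflect spread within the groups of these 18 libraries alone, and that spread may be technical. In bulk RNA, fewer cells of a kind and less RNA per cell cannot be told apart.

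Background on the pathways helps to read the results. When cells meet unfolded proteins, mitochondrial damage or a lack of amino acids, kinases phosphorylate the initiation factor eIF2α. General translation then slows while the transcription factor ATF4 is translated more, which in turn drives the factor CHOP (gene DDIT3), genes of amino acid synthesis and the stress cytokine GDF15. In the endoplasmic reticulum, the unfolded protein response uses this arm beside those of ATF6 and XBP1, which raise luminal chaperones such as BiP (gene HSPA5). In dividing cells, E2F factors switch on genes for DNA synthesis ahead of S phase, and a MYB-containing complex that binds the CHR element switches on mitotic genes later.

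Several of the genes described below carry words that match the DNA elements of these pathways just before a RefSeq start. They are printed to show what such words look like in place. The first pair held a CARE-type word, the element that ATF4 binds with a C/EBP partner (TGATGNAA, either strand), set in capitals.
ATF3 (GRCh38.p14, chr1:212565157-212565406, plus strand): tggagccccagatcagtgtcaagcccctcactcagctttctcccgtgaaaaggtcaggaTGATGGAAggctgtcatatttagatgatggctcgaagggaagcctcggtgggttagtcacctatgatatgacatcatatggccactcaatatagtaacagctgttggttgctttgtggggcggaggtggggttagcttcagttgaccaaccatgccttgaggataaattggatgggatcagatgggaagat
CHAC1 (GRCh38.p14, chr15:40953221-40953470, plus strand): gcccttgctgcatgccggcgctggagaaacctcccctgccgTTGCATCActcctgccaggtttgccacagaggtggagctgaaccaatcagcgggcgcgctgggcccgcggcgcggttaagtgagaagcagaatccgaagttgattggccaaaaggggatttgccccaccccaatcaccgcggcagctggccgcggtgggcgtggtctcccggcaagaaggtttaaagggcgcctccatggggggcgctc
In ATF3 the word began 191 bases before the start, and in CHAC1 it lay on the other strand, 209 bases before it. A single RefSeq start was read per gene, so promoters at other starts were not searched. Whether these cells used the start shown was not tested. The CARE word stood in 3.67% of all 27305 RefSeq promoters of 300 bases (250 before and 50 after the start) and in 3 of the 11 promoters found for the ATF4 and CHOP genes. The windows of DDIT3 and TRIB3 did not hold these letters, which says nothing of sites elsewhere.

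The next pair held the ERSE element of endoplasmic reticulum chaperone genes, CCAAT and CCACG with 9 bases between them, also in capitals.
HSPA5 (GRCh38.p14, chr9:125241344-125241593, minus strand): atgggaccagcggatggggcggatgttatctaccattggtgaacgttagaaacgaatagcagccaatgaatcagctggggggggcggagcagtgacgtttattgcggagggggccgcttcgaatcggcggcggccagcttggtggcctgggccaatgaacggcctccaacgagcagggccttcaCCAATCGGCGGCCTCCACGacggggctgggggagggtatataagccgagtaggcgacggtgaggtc
XBP1 (GRCh38.p14, chr22:28800570-28800819, minus strand): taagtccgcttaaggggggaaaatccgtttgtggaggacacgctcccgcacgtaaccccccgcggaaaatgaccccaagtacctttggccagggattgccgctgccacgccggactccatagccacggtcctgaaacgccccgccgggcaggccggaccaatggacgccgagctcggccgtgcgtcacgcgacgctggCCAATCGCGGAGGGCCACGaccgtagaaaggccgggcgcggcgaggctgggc
The element stood in 0.0806% of all promoters and in 6 of the 20 found for the unfolded protein response genes.

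The last 4 held the CHR word TTTGAA, on either strand and in capitals, with CDK1 being the kinase that starts mitosis, KIF11 and KIF23 spindle motors and MKI67 the Ki-67 proliferation marker.
CDK1 (GRCh38.p14, chr10:60778081-60778330, plus strand): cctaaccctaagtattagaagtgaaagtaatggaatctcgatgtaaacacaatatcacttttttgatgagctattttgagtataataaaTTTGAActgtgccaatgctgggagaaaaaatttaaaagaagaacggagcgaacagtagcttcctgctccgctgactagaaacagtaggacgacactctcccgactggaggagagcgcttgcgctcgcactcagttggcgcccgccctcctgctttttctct
KIF11 (GRCh38.p14, chr10:92592880-92593129, plus strand): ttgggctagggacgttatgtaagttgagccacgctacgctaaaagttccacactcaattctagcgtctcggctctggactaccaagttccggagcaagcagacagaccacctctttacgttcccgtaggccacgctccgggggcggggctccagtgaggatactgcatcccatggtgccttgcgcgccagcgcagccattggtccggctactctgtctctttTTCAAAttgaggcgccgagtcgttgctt
KIF23 (GRCh38.p14, chr15:69414099-69414348, plus strand): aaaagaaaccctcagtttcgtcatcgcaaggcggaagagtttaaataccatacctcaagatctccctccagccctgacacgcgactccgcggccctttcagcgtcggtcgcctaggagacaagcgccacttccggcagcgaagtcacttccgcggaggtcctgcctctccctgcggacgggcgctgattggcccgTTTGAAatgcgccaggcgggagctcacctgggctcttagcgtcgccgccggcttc
MKI67 (GRCh38.p14, chr10:128126424-128126673, minus strand): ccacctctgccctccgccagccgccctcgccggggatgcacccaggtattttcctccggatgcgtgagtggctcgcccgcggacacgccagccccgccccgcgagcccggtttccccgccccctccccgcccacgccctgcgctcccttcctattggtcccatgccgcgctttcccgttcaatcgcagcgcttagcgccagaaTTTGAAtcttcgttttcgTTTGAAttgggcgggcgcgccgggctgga
TTTGAA stood in 15.4% of all promoters and in 9.61% of the 10093 found for tested genes. It stood in 78 of the 395 promoters found for genes lower with both scalings (19.7%), in 16 of the 199 found for genes higher with both (8.04%) and in 28 of the 39 found for the kinetochore and cytokinesis genes (71.8%). The E2F-type word TTTGGCGC stood in 0.659% of all promoters and in 6 of the 31 found for DNA replication genes (19.4%). These are matches of letters, not measured binding sites.

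After 48 h, more genes were lower than higher in treated cells when TPM was taken as deposited. In limma on log2(TPM + 1), 1140 genes passed an adjusted p of 0.05 (Benjamini-Hochberg), of which 291 were higher (1.95% of those tested) and 849 lower (5.68%), and without adjustment 3172 genes had a p below 0.05. The spread in this fit came from all 18 libraries of the series. With only the 6 libraries of the comparison fitted, 223 of the 291 higher and 568 of the 849 lower genes were still called. The median change over all genes was -0.15 on the log2 scale. Median-of-ratios scaling, which divides each library by its typical ratio to the others, moved that median to 0 and gave 492 genes higher (3.29%) and 507 lower (3.39%). The share of calls that were higher was thus 25.5% as deposited and 49.2% after scaling. All 291 higher genes were also called higher after scaling, and 507 of the 849 lower genes were called lower by both. For that reason each group of genes below is given on both scales. By the means of the log2 values, 215 of the higher and 521 of the lower genes changed at least 2-fold, and 56 and 48 of them at least 4-fold. Treated and untreated libraries did not overlap for any of the 291 higher genes and for 844 of the 849 lower ones, against 30.5% of all genes tested. The calls rest on these same values, so the lack of overlap describes the called genes and is not separate support for them.

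**Figure D1:**
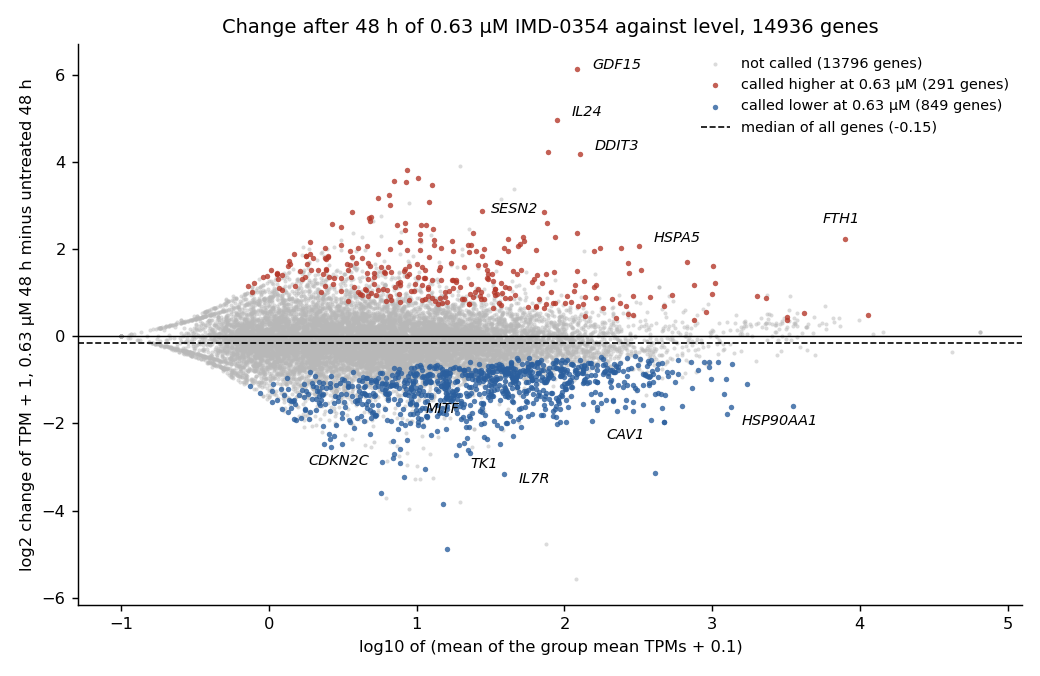
Log2 change at 0.63 µM for 48 h minus untreated 48 h (vertical axis, log2(TPM + 1) scale) against the log10 of the mean level (horizontal axis) for 14936 genes. Red points are the 291 genes called higher, blue points the 849 called lower, and the dashed line is the median change of -0.15, below 0.

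The libraries behind these counts were somewhat more alike within groups than across them. Pearson's r of log2(TPM + 1) was 0.940 to 0.949 between treated libraries, 0.943 to 0.956 between untreated ones and 0.912 to 0.931 across the groups. The scaling factors were 0.917, 0.919 and 0.813 for treated replicates 1, 2 and 3, against 1.03, 1.05 and 0.980 for the untreated ones. Treated replicate 3 held the lowest treated value in 565 of the 849 genes called lower (66.5%). Without it 557 genes were called, and 604 and 614 without untreated replicates 2 and 1, so the count of calls leans on single libraries while 136 higher and 305 lower genes were called in each of the 6 fits that left out a 48 h library. Mitochondrial mRNAs took 2.90% ± 0.435 of the TPM in treated and 2.81% ± 0.412 in untreated cells (SD, n = 3 each). Cytosolic ribosomal protein mRNAs took 26.0% ± 1.25 in treated and 21.4% ± 0.795 in untreated cells.

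The labelled cell type was checked on its markers. SOX10, a neural crest factor of melanoma, lay at 11.9 to 13.5 TPM in treated and 13.6 to 18.6 TPM in untreated cells. MITF lay at 2.87 to 4.93 and 15 to 16.5 TPM, and S100B at 0 to 1.53 and 0.37 to 1.26 TPM. The mesenchymal markers differed in direction. AXL lay at 95.5 to 110 TPM in treated and 78.6 to 88.7 TPM in untreated cells, and NGFR at 9.14 to 10.7 and 4.11 to 5.04 TPM. CAV1 lay at 60.9 to 65 and 231 to 250 TPM, and VIM at 1003 to 1164 and 1092 to 1299 TPM. The pigment genes MLANA, PMEL, TYR and DCT stayed at or below 1.25 TPM in all 6 libraries, so the markers of pigmented melanoma were at or near 0. Leukocyte markers (6 genes) summed to 0 TPM in treated and at most 0.52 TPM in untreated libraries, endothelial ones (6 genes) to 0 and at most 0.07 TPM, and fibroblast ones (6 genes) to at most 0.04 and 1.12 TPM. Keratinocyte markers (6 genes) summed to 38.4 to 42.9 TPM in treated and 27.8 to 35.3 TPM in untreated libraries, nearly all of it KRT10, while KRT1 and TP63 were at 0.

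The ATF4 and CHOP genes had the highest median change of the lists. Of 12 measured, 9 rose and none fell, with a median change of 1.65 as deposited. After scaling the count was the same and the median 1.84, and the counts over all genes above give the background. DDIT3, which encodes CHOP, had 218, 184 and 323 TPM in treated cells and 10.8, 15.8 and 10.0 TPM in untreated cells. All treated libraries lay above all untreated ones, by 4.18 ± 0.36 on the log2 scale (SE; adjusted p = 4.03e-06). PPP1R15A, the regulatory subunit that lets eIF2α be dephosphorylated again, had 136, 139 and 113 TPM in treated and 15.3, 19.1 and 16.8 TPM in untreated cells, a change of 2.85 ± 0.18 (adjusted p = 1.91e-07). TRIB3, a pseudokinase induced by ATF4 and CHOP, had 65.6, 71.7 and 67.4 TPM in treated and 16.6, 15.6 and 9.89 TPM in untreated cells, a change of 2.23. The groups did not overlap for these 3 genes.

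Other members of the group rose less or varied more. ATF3, a further stress factor of the same family, had 32.04, 18.1 and 36.3 TPM in treated and 5.82, 6.13 and 7.35 TPM in untreated cells (change 1.95, adjusted p = 0.00479). ATF4 itself, which is governed mostly at translation, had 314, 295 and 364 TPM in treated and 213, 209 and 174 TPM in untreated cells, a change of 0.70 ± 0.16 (adjusted p = 0.0149). CHAC1, which breaks down glutathione, had 24.0, 29.4 and 13.7 TPM in treated and 3.90, 3.38 and 2.10 TPM in untreated cells, a change of 2.46 ± 0.57 (adjusted p = 0.0139). The ATF4 call was lost without treated replicate 3 (adjusted p = 0.081) or untreated replicate 3 (0.0678), and the CHAC1 call without treated replicate 2 (0.0555) or untreated replicate 3 (0.055). None of the 8 eIF2 kinase and mitochondrial relay genes was called on either scale, with medians of -0.09 as deposited and 0.12 after scaling. EIF2AK3, which encodes PERK, the kinase of the endoplasmic reticulum, lay at 1.21 to 2.76 TPM in treated and 0.67 to 1.02 TPM in untreated cells (adjusted p = 0.334).

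Secreted stress factors held the largest rises of all named genes. Of 8 measured, 4 rose and none fell (5 after scaling), with medians of 1.32 and 1.53 on the 2 scales. GDF15, a cytokine of stressed cells that acts on appetite through the brainstem, had 214, 206 and 303 TPM in treated and 1.35, 2.14 and 4.44 TPM in untreated cells. The means of 241 ± 54.0 and 2.64 ± 1.61 TPM (SD, n = 3 each) were 91.2-fold apart, and the log2 change was 6.12 ± 0.58 (adjusted p = 1.06e-05). The gene lies on chromosome 19. IL24, a cytokine of the IL-10 family first found in differentiating melanoma cells, had 140, 145 and 232 TPM in treated and 3.59, 4.28 and 5.65 TPM in untreated cells, a change of 4.95 ± 0.39 (adjusted p = 2.19e-06). STC2, a secreted glycoprotein hormone, lay at 14.9 to 19.5 TPM in treated and 2.55 to 3.54 TPM in untreated cells (change 2.22). VEGFA, the main growth factor of blood vessels, had 46.9, 40.6 and 21.4 TPM in treated and 10.8, 9.37 and 5.57 TPM in untreated cells, so replicate 3 was the lowest of each group without overlap between them.

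**Figure D2:**
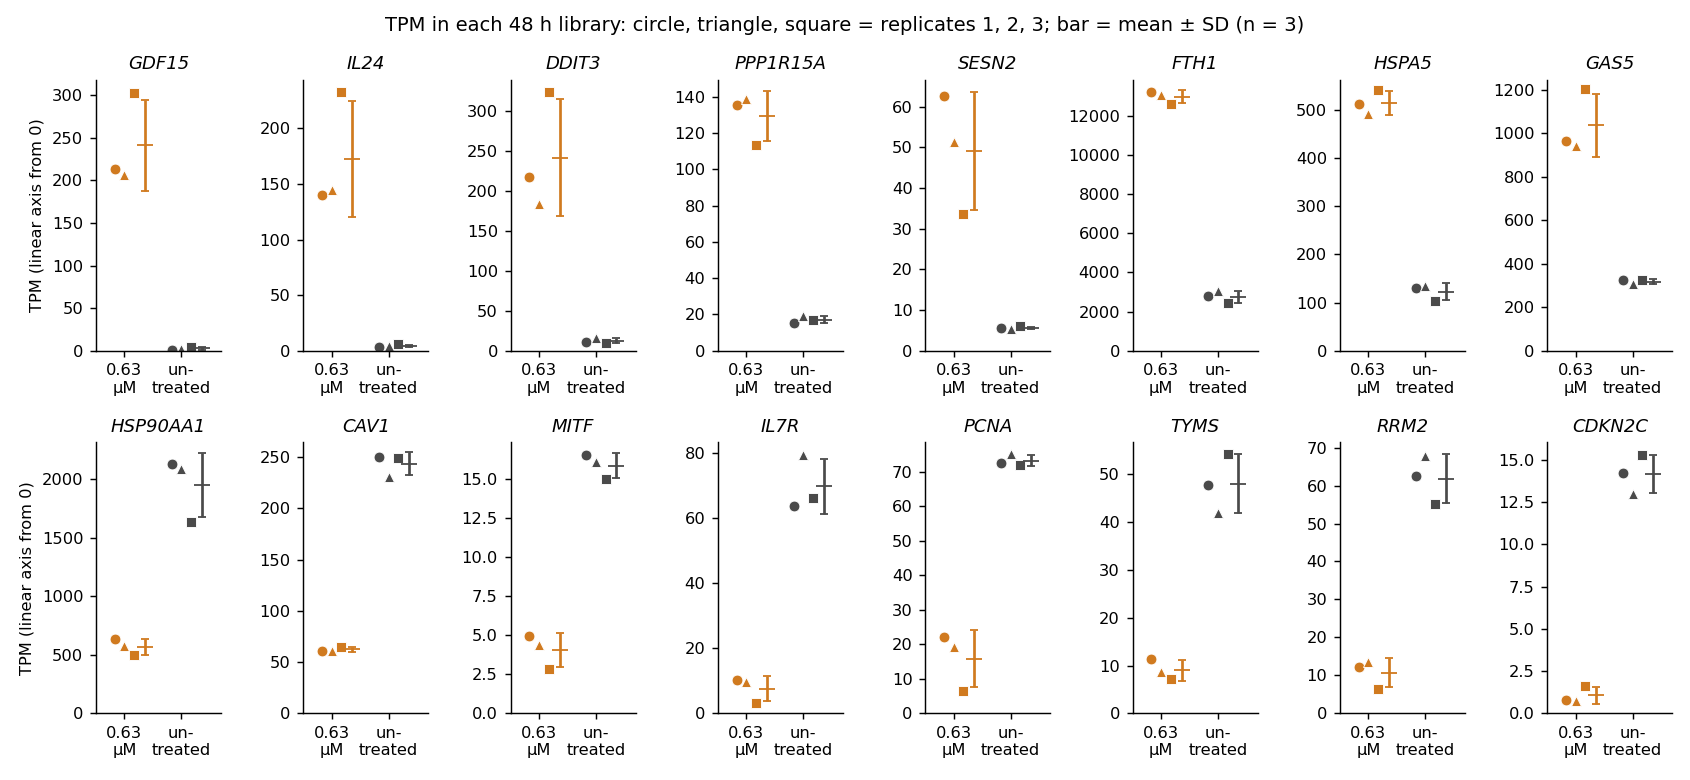
TPM of 16 genes in each 48 h library on linear axes from 0, with 0.63 µM on the left and untreated on the right; circles, triangles and squares are replicates 1, 2 and 3, and the bars are mean ± SD (n = 3). In every panel the groups do not overlap: GDF15 lies at 206 to 303 TPM in treated and 1.35 to 4.44 TPM in untreated cells, and PCNA at 6.45 to 22.0 and 72.0 to 75.0 TPM.

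Genes that hold back mTORC1, the kinase that couples nutrients to growth, were among the rises. Of 8 measured, SESN2 and DDIT4 rose on both scales and none fell. SESN2, a leucine sensor, had 62.5, 51.2 and 33.6 TPM in treated and 5.46, 5.43 and 5.99 TPM in untreated cells (change 2.88 ± 0.28, adjusted p = 1.76e-05). DDIT4, which acts through the TSC complex, lay at 60.1 to 76.8 TPM in treated and 21.02 to 29.1 TPM in untreated cells (change 1.42).

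ATF4 is known to drive enzymes that supply amino acids. Of 14 measured, 4 rose (5 after scaling), none fell and 10 were not called, with medians of 0.60 and 0.80. None of the 4 was called in all 6 fits that left out a library, which called 0 to 2, the 0 being without untreated replicate 3. ASNS, the asparagine synthetase, had 97.1, 106 and 90.0 TPM in treated and 46.6, 48.6 and 31.0 TPM in untreated cells, a change of 1.22 ± 0.27 (adjusted p = 0.0115). Its call was lost only when untreated replicate 3 was left out (adjusted p = 0.0558), among the 6 such fits. PCK2, the mitochondrial enzyme that makes phosphoenolpyruvate, lay at 11.6 to 17.8 TPM in treated and 5.28 to 6.83 TPM in untreated cells (change 1.17, adjusted p = 0.018). It was not called without untreated replicate 1 (adjusted p = 0.056) or 3 (0.0692), or without treated replicate 1 (0.0618) or 2 (0.0727). CTH and MTHFD2 were also called, and each lost its call when any 1 of the 6 libraries was left out (adjusted p up to 0.159 and 0.119). Of the amino acid transporters, 0 of 10 were called as deposited and 3 after scaling, with medians of 0.50 and 0.70. SLC7A11, the cystine importer, lay at 6.10 to 14.1 TPM in treated and 2.77 to 5.15 TPM in untreated cells, with adjusted p = 0.0824 as deposited and 0.0317 after scaling.

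Transfer RNA synthetases of the cytosol, which charge tRNAs with amino acids, rose in 4 of 20 as deposited and in 8 of 20 after scaling, with medians of 0.12 and 0.33. The 4 became 2 without treated replicate 1 or 3, or without untreated replicate 2 or 3. SARS1, the seryl enzyme, had 220, 214 and 218 TPM in treated and 103, 97.1 and 96.4 TPM in untreated cells, a change of 1.13 ± 0.15 (adjusted p = 0.000269). GARS1, the glycyl enzyme, lay at 356 to 396 TPM in treated and 148 to 233 TPM in untreated cells (change 0.92, adjusted p = 0.00545). These values did not overlap between the groups.

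Among genes of the unfolded protein response, 4 of 22 rose (6 after scaling) and none fell, with medians of 0.25 and 0.46. HSPA5, the luminal chaperone BiP, had 512, 491 and 541 TPM in treated and 131, 134 and 103 TPM in untreated cells, 4.20-fold apart by their means (change 2.07 ± 0.17, adjusted p = 3.47e-06). HERPUD1, which helps clear misfolded proteins from the membrane, lay at 32.4 to 49.3 TPM in treated and 8.13 to 10.4 TPM in untreated cells (change 1.95). XBP1, the transcription factor whose mRNA is spliced by IRE1, lay at 28.1 to 33.6 TPM in treated and 8.11 to 11.3 TPM in untreated cells (change 1.59); gene totals do not separate its spliced form. HYOU1, a further luminal chaperone, had 111, 83.8 and 61.2 TPM in treated and 39.4, 42.7 and 24.0 TPM in untreated cells (change 1.25, adjusted p = 0.00573), and was not called when only the 6 libraries were fitted (0.0598). The other 18 genes of the list were not called as deposited.

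Many chaperones of the cytosol fell. Of 17 heat shock genes, 11 fell and none rose as deposited, and 8 fell after scaling, with medians of -1.05 and -0.85. HSP90AA1, the inducible HSP90, had 635, 574 and 498 TPM in treated and 2131, 2088 and 1636 TPM in untreated cells, a change of -1.77 ± 0.28 (adjusted p = 0.00102). HSPA1A, the inducible HSP70, had 7.21, 6.13 and 2.92 TPM in treated and 41.1, 53.1 and 22.3 TPM in untreated cells (change -2.62, adjusted p = 0.00576). HSPA1A has a near-identical neighbour, HSPA1B, so how reads were split between them is uncertain. DNAJA1, an HSP70 partner, lay at 13.9 to 37.9 TPM in treated and 65.0 to 92.8 TPM in untreated cells (change -1.63), and was not called when only the 6 libraries were fitted (adjusted p = 0.0545). Treated replicate 3 held the lowest treated value in 7 of the 11 genes that fell (63.6%), near its share of 66.5% over all genes called lower.

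In mitochondria, the 2 called chaperones moved apart. HSPE1, the small subunit that caps the HSP60 chamber, fell, with 112, 161 and 106 TPM in treated and 364, 421 and 376 TPM in untreated cells (change -1.63 ± 0.25, adjusted p = 0.000691). HSPA9, the mitochondrial HSP70, rose, with 634, 582 and 543 TPM in treated and 390, 362 and 335 TPM in untreated cells (change 0.69 ± 0.15, adjusted p = 0.0107). The other 13 of 15 genes in that list were not called on either scale.

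Protein disposal changed in parts. Of 31 proteasome subunits, 7 fell as deposited and 1 after scaling, with medians of -0.45 and -0.24, so most of these calls depended on the scaling. Leaving out treated replicate 3 or untreated replicate 1 or 2 also left 1 of the 7. PSMA2, a core subunit, had 74.9, 77.0 and 70.4 TPM in treated and 124.87, 137 and 130 TPM in untreated cells (adjusted p = 0.00899 as deposited and 0.0518 after scaling). Of 20 autophagy genes, 3 rose (6 after scaling) and none fell. SQSTM1, the p62 cargo receptor, had 501, 473 and 498 TPM in treated and 178, 206 and 133 TPM in untreated cells (change 1.52 ± 0.16, adjusted p = 2.3e-05). MAP1LC3B, the LC3 protein that coats the autophagosome, lay at 36.7 to 46.8 TPM in treated and 14.2 to 18.2 TPM in untreated cells (change 1.33). WIPI1, which binds the lipid of the forming membrane, had 19.0, 12.04 and 30.3 TPM in treated and 2.64, 2.91 and 1.78 TPM in untreated cells (change 2.56). Lysosomal genes gave 1 call in 25 as deposited, lower, and 3 after scaling, higher.

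Both ferritin chains rose. FTH1, the ferritin heavy chain that oxidises and stores iron, had 13239, 13089 and 12599 TPM in treated and 2792, 3031 and 2431 TPM in untreated cells, a change of 2.24 ± 0.13 (adjusted p = 1.54e-07). It took 1.298% of all TPM in treated cells and 0.275% in untreated cells; FTH1 has many processed pseudogenes that can share its reads. FTL, the light chain, had 1532, 1534 and 1345 TPM in treated and 632, 690 and 562 TPM in untreated cells (change 1.23). Of the 8 iron genes, these 2 rose on both scales, and IREB2, an iron sensor, was called lower only as deposited. Of 23 NRF2 antioxidant genes, 2 rose and 1 fell (4 and 1 after scaling). The 2 became 4 without treated replicate 3, and 1 without treated replicate 1 or 2 or untreated replicate 2 or 3. PRDX1, a peroxide-reducing enzyme, fell to 765, 726 and 492 TPM in treated cells, against 1369, 1415 and 1086 TPM in untreated cells (change -0.98, adjusted p = 0.00381). HMOX1, the heme-degrading enzyme, had 18.4, 13.02 and 2.88 TPM in treated and 2.31, 1.2 and 1.29 TPM in untreated cells (change 1.99, adjusted p = 0.0229). The HMOX1 call was lost without treated replicate 1 (adjusted p = 0.108) or 2 (0.0886), without untreated replicate 2 (0.0867) or 3 (0.0715), and in the fit of the 6 libraries alone (0.112).

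Host genes of small nucleolar RNAs, several of which have spliced transcripts that are degraded when translated, rose in 7 of 21 as deposited and 8 of 21 after scaling, with none lower and medians of 0.56 and 0.77. GAS5 had 963, 942 and 1201 TPM in treated and 324, 305 and 324 TPM in untreated cells (change 1.69 ± 0.18, adjusted p = 3.6e-05). SNHG32 had 338, 349 and 471 TPM in treated and 75.0, 92.8 and 117 TPM in untreated cells (change 2.02). ZFAS1 had 1228, 1464 and 1871 TPM in treated and 435, 462 and 582 TPM in untreated cells (change 1.61). EPB41L4A-AS1 lay at 343 to 539 TPM in treated and 115 to 137 TPM in untreated cells (change 1.69); whether counting used strand is not stated, so reads of antisense partners cannot be told apart. Ribosomal protein mRNAs moved little each: of 76, 4 rose and 1 fell as deposited, and 18 rose and 1 fell after scaling, with medians of 0.27 and 0.48. The 4 became 2 without treated replicate 2 and 1 without treated replicate 3 or untreated replicate 1 or 2. Called or not, 72 of the 76 changes lay above 0 as deposited, against 5762 of all 14936 genes. RPL12, of the large subunit, had 2816, 2860 and 3309 TPM in treated and 1525, 1660 and 1667 TPM in untreated cells (change 0.89 ± 0.14). RPS26, of the small subunit, was the fall, with 385, 371 and 327 TPM in treated and 704, 610 and 592 TPM in untreated cells (change -0.81).

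**Figure D3:**
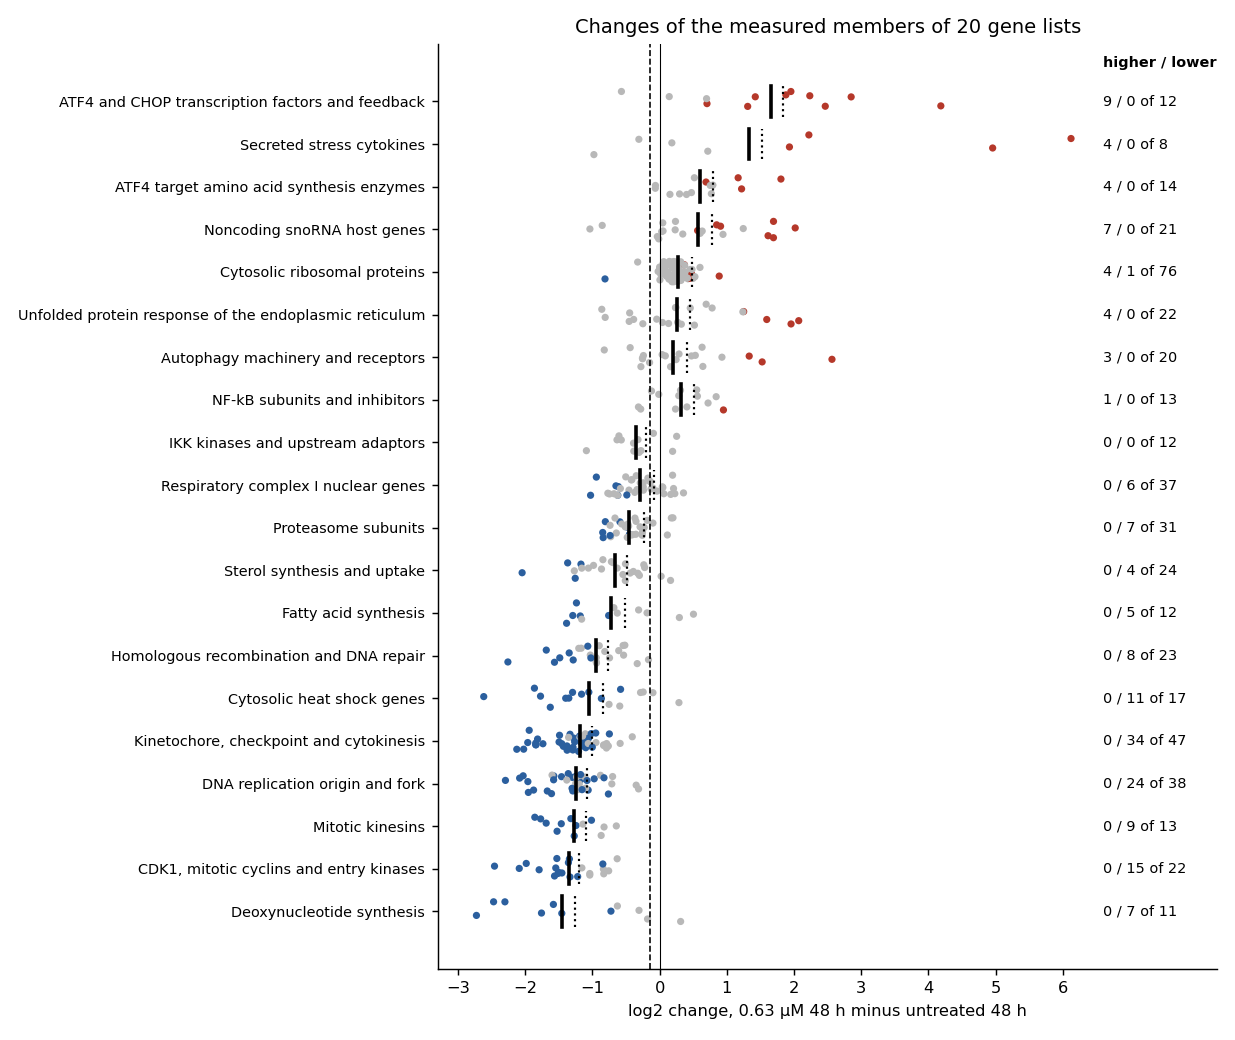
Log2 change at 48 h (0.63 µM minus untreated, horizontal axis) of each measured member of 20 gene lists; red points were called higher, blue lower and grey neither, with the counts on the right. Thick bars mark the list median as deposited, dotted bars the median after scaling, and the dashed line the median of all genes (-0.15): the ATF4 and CHOP list stands at 1.65 and the deoxynucleotide list at -1.46.

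Many genes for making and copying DNA fell. Of 38 replication genes, 24 fell and none rose as deposited, and 18 fell after scaling, with medians of -1.24 and -1.08. The 24 became 9 without treated replicate 3, 14 without untreated replicate 1 and 13 without untreated replicate 2, and 9 were called in all 6 such fits. PCNA, the sliding clamp of the replication fork, had 22.0, 19.1 and 6.45 TPM in treated and 72.6, 75.0 and 72.0 TPM in untreated cells, a change of -2.29 ± 0.34 (adjusted p = 0.000591). FEN1, which trims Okazaki fragments, had 58.5, 51.9 and 21.3 TPM in treated and 143, 185 and 153 TPM in untreated cells (change -1.96). GINS2, part of the replicative helicase, lay at 2.01 to 4.13 TPM in treated and 12.3 to 15.6 TPM in untreated cells (change -2.03). MCM3, a ring subunit of that helicase, had 10.7, 13.2 and 2.31 TPM in treated and 35.7, 39.3 and 27.4 TPM in untreated cells (change -2.08), and was not called in the fit of the 6 libraries alone (adjusted p = 0.0792). Treated replicate 3 held the lowest treated value in 21 of these 24 genes (87.5%), against 66.5% of all genes called lower.

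Of 11 enzymes that make deoxynucleotides, 7 fell and none rose (6 after scaling), with medians of -1.46 and -1.26. RRM2, the ribonucleotide reductase subunit that limits S phase supply, had 12.1, 13.6 and 6.50 TPM in treated and 62.5, 67.9 and 55.0 TPM in untreated cells, a change of -2.47 ± 0.36 (adjusted p = 0.000549). TYMS, thymidylate synthase, had 11.4, 8.57 and 7.13 TPM in treated and 47.8, 41.9 and 54.3 TPM in untreated cells (change -2.30 ± 0.25, adjusted p = 3.57e-05). TK1, the thymidine salvage kinase, had 6.90, 4.55 and 1.82 TPM in treated and 35.0, 30.0 and 31.2 TPM in untreated cells (change -2.73). The groups did not overlap, and treated replicate 3 was the lowest treated library for all 7 genes, against 66.5% of all genes called lower.

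Many mitotic genes fell as well. Of 22 genes for CDK1, its cyclins and entry kinases, 15 fell (13 after scaling), with medians of -1.35 and -1.20. The 15 became 9 without treated replicate 3 or untreated replicate 1, and 8 were called in all 6 such fits. CDK1 had 61.8, 74.8 and 65.1 TPM in treated and 224, 179 and 193 TPM in untreated cells, a change of -1.55 ± 0.30 (adjusted p = 0.00443). MYBL2, the MYB factor that switches on mitotic genes, had 7, 7.20 and 3.31 TPM in treated and 40.3, 38.1 and 28.0 TPM in untreated cells (change -2.46 ± 0.35, adjusted p = 0.000414). PBK, a mitotic kinase, lay at 14.5 to 22.1 TPM in treated and 74.6 to 94.1 TPM in untreated cells (change -2.09). None of the 22 genes rose on either scale.

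Among 13 mitotic kinesins, 9 fell (7 after scaling) with medians of -1.27 and -1.10. The 9 became 4 without treated replicate 3 and 5 without untreated replicate 1 or 3, and 3 were called in all 6 such fits. KIF11, which pushes the spindle poles apart, lay at 3.62 to 5.01 TPM in treated and 18 to 19.5 TPM in untreated cells (change -1.86 ± 0.22, adjusted p = 8.02e-05). KIF23, needed to finish cytokinesis, lay at 10.4 to 16.3 TPM in treated and 41.1 to 43.3 TPM in untreated cells (change -1.53). Of 47 kinetochore, checkpoint and cytokinesis genes, 34 fell (25 after scaling), with medians of -1.19 and -1.01, and all 47 changes lay below 0. The 34 became 21 without treated replicate 3 and 20, 19 and 22 without untreated replicates 1, 2 and 3, and 16 were called in all 6 such fits. SPC25 and SPC24, partners in the complex that holds microtubules at the kinetochore, lay at 1.81 to 2.68 and 2.05 to 4.74 TPM in treated and at 10.46 to 14.8 and 14.2 to 20.03 TPM in untreated cells. TACC3, a spindle stabiliser, had 22.0, 19.6 and 12.6 TPM in treated and 66.4, 84.1 and 62.6 TPM in untreated cells (change -1.94). MKI67, the Ki-67 marker, had 40.9, 42.9 and 30.2 TPM in treated and 146, 154 and 115 TPM in untreated cells (change -1.84 ± 0.31, adjusted p = 0.00174).

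Regulators of the G1 phase were mixed. Of 16, 1 rose and 4 fell (2 and 4 after scaling). The 4 became 2 without untreated replicate 1, and 2 rose without untreated replicate 2. CDK2, the kinase of the G1 to S step, fell to 32.1, 33.1 and 27.5 TPM in treated cells, against 77.2, 78.2 and 70.9 TPM in untreated cells (change -1.26 ± 0.16, adjusted p = 0.000115). E2F7, an E2F family repressor, rose, with 47.5, 58.5 and 35.6 TPM in treated and 22.4, 19.4 and 10.1 TPM in untreated cells (change 1.44, adjusted p = 0.00544). E2F1, an activating member, had 1.63, 3.04 and 0.52 TPM in treated and 8.32, 6.56 and 4.93 TPM in untreated cells (change -1.56, adjusted p = 0.0103). The E2F1 call was lost without untreated replicate 1 (adjusted p = 0.0567) or treated replicate 3 (0.0629) and with the 6 libraries alone (0.0734), and E2F7 was not called with the 6 libraries alone (0.0551). CCND1, cyclin D1, overlapped between the groups at 77.7 to 117 TPM in treated and 69.2 to 117 TPM in untreated cells.

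Of 6 CDK inhibitors, 2 fell on both scales. CDKN2C, the p18 inhibitor of CDK4 and CDK6, had 0.81, 0.76 and 1.61 TPM in treated and 14.2, 13 and 15.3 TPM in untreated cells, a change of -2.90 ± 0.22 (adjusted p = 2.19e-06). CDKN1A, the p21 inhibitor, had 50.9, 51.0 and 35.6 TPM in treated and 21.1, 18.6 and 19.98 TPM in untreated cells. These CDKN1A values did not overlap, but the change of 1.15 ± 0.42 missed the threshold with all groups fitted (adjusted p = 0.116) and passed it with the 6 libraries alone (0.02).

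Of 23 DNA repair genes, 8 fell (5 after scaling) and none rose, with medians of -0.95 and -0.77. The 8 became 3 without treated replicate 3 or untreated replicate 2 and 4 without untreated replicate 1, and 3 were called in all 6 such fits. UNG, which removes uracil from DNA, had 6.00, 4.28 and 1.62 TPM in treated and 21.6, 22.3 and 19.2 TPM in untreated cells (change -2.26, adjusted p = 0.00109). Of 27 replication-dependent histone genes, 7 fell (5 after scaling) and none rose. The 7 became 4 without treated replicate 3 and 2 without untreated replicate 1 or 2. H2AC4 had 5.12, 4.83 and 8.89 TPM in treated and 40.4, 52.8 and 18.8 TPM in untreated cells (change -2.32, adjusted p = 0.00667). H1-1 was listed at 0 in all 3 treated libraries, against 8.37, 8.91 and 0.87 TPM in untreated cells, and its call was lost without untreated replicate 1 (adjusted p = 0.0614) or 2 (0.063) and with the 6 libraries alone (0.0779). Histone genes are near copies of one another and their mRNAs mostly lack the poly(A) tail that 3' end libraries start from, so their capture is uncertain.

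Of 24 sterol genes, 4 fell (3 after scaling) and none rose, with medians of -0.66 and -0.49. HMGCS1, an early enzyme of sterol synthesis, lay at 2.72 to 3.34 TPM in treated and 5.18 to 6.22 TPM in untreated cells without passing the test (adjusted p = 0.242). Of 12 fatty acid genes, 5 fell (3 after scaling), with medians of -0.72 and -0.52. The 5 became 2 without treated replicate 3 and 3 without treated replicate 1 or any 1 untreated library. SCD, which desaturates fatty acids, had 16.9, 17.7 and 13.8 TPM in treated and 36.7, 44.5 and 41.4 TPM in untreated cells (change -1.29, adjusted p = 0.00496). FASN, the synthase, lay at 6.79 to 11.1 TPM in treated and 18.2 to 23.2 TPM in untreated cells (change -1.18, adjusted p = 0.0079), and 0.0502 without treated replicate 3.

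Of 21 glycolysis genes, 1 rose and 4 fell (1 and 3 after scaling). The 4 became 2 without treated replicate 3 or untreated replicate 3. SLC2A3, the glucose transporter GLUT3, rose, with 73.4, 43.9 and 70.3 TPM in treated and 13.1, 10.1 and 22.0 TPM in untreated cells (change 2.02 ± 0.33, adjusted p = 0.00134). PKM, pyruvate kinase, fell to 171, 180 and 141 TPM in treated cells, against 368, 319 and 328 TPM in untreated cells (change -1.04, adjusted p = 0.00108). PGAM1, a glycolytic mutase, lay at 44.7 to 70.4 TPM in treated and 137 to 144 TPM in untreated cells (change -1.20). Of 15 hypoxia-inducible genes, VEGFA and NDRG1 rose on both scales and none fell. NDRG1, a stress-induced gene, had 152, 141 and 128 TPM in treated and 19.3, 19.4 and 57.2 TPM in untreated cells, where untreated replicate 3 was the highest (change 2.29).

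Of 37 nuclear genes of respiratory complex I, 6 fell as deposited and 2 after scaling, with medians of -0.29 and -0.08. The 6 became 2 without treated replicate 1 or untreated replicate 1, and 3 without treated replicate 3 or untreated replicate 2 or 3. NDUFC2, a membrane subunit, had 113, 112 and 92.8 TPM in treated and 254, 208 and 191 TPM in untreated cells (change -1.03 ± 0.15, adjusted p = 0.000562). Of 39 genes of complexes II to V, 5 fell (4 after scaling), and SDHA, the flavoprotein of complex II, had 72.5, 77.9 and 77.0 TPM in treated and 132, 124.84 and 137 TPM in untreated cells (change -0.78). Of 13 transcripts of mitochondrial DNA, 2 rose and none fell on either scale. MT-ND4L, a complex I subunit, had 2734, 2766 and 2374 TPM in treated and 1466, 1279 and 1430 TPM in untreated cells (change 0.91 ± 0.17, adjusted p = 0.00409); its reading frame overlaps that of its neighbour, so reads may be shared. MT-CO1 was the other (change 0.98, adjusted p = 0.0471) and lost its call when any of the 6 libraries was left out (adjusted p of 0.0789 to 0.166).

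The compound is described to inhibit the kinase encoded by IKBKB, so the genes of that pathway were looked at next. None of the 12 IKK kinases and adaptors was called on either scale. IKBKB, which encodes IKKβ, had 8.19, 12.3 and 4.28 TPM in treated and 7.76, 8.93 and 3.97 TPM in untreated cells (change 0.19 ± 0.48, adjusted p = 0.88). RELA, the p65 subunit, lay at 15.7 to 19.4 TPM in treated and 16.04 to 22.0 TPM in untreated cells, and NFKBIA, the inhibitor that NF-kB itself induces, at 12.5 to 27.3 and 15.9 to 28.3 TPM. These groups overlapped. Of 13 NF-kB subunits and inhibitors only NFKB2 was called, higher, at 4.90 to 6.81 TPM in treated and 1.80 to 3.91 TPM in untreated cells (adjusted p = 0.0425). Its call was lost in 5 of the 6 fits that left out a library, all but that without untreated replicate 2 (adjusted p up to 0.152), and with the 6 libraries alone (0.106). Of 12 NF-kB regulated cytokine and adhesion genes, 3 rose (4 after scaling) and none fell. IL11, a cytokine of the IL-6 family, lay at 13.2 to 14.1 TPM in treated and 4.90 to 6.18 TPM in untreated cells (change 1.19 ± 0.25, adjusted p = 0.00762). CXCL2, a neutrophil chemokine, had 2.85, 4.84 and 1.93 TPM in treated and 0.44, 0 and 0 TPM in untreated cells (adjusted p = 0.00708).

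Melanoma state genes split in direction. Of 9 melanocyte lineage genes, MITF and CDK2 fell on both scales and none rose. MITF, the master factor of melanocytes, had 4.93, 4.41 and 2.87 TPM in treated and 16.5, 16.1 and 15 TPM in untreated cells, a change of -1.76 ± 0.30 (adjusted p = 0.00171). Of 24 markers of dedifferentiated melanoma, 4 rose and 4 fell on each scale. CAV1, the coat protein of caveolae, had 60.9, 61.3 and 65.0 TPM in treated and 250, 231 and 249 TPM in untreated cells, a change of -1.95 ± 0.13 (adjusted p = 4.02e-07). CAVIN1, its partner, had 60.4, 53.3 and 41.0 TPM in treated and 166, 157 and 151 TPM in untreated cells (change -1.61).

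Matrix genes were mixed as well. Of 21, 3 rose and 5 fell (3 and 4 after scaling). The 3 became 1 without treated replicate 1 or untreated replicate 2, and the 5 became 3 without treated replicate 3 or untreated replicate 2 or 3. MMP2, the gelatinase A protease, had 10.6, 10.1 and 9.94 TPM in treated and 51.1, 37.1 and 44.97 TPM in untreated cells (change -2.01 ± 0.40, adjusted p = 0.00564). THBS1, thrombospondin 1, had 12.4, 8.11 and 12.2 TPM in treated and 53.7, 45.01 and 38.8 TPM in untreated cells (change -1.98, adjusted p = 0.000138). Of 19 genes on the YAP/TEAD list, which holds the pathway's own factors beside targets, 1 rose and 1 fell (2 and 1 after scaling). When 1 library was left out, the rise, ANKRD1, was called only without untreated replicate 3 (adjusted p up to 0.166 otherwise). WWTR1, which encodes the coactivator TAZ, lay at 26.1 to 35.2 TPM in treated and 63.4 to 68.0 TPM in untreated cells (change -1.06). Of 10 S100 genes 1 rose and 3 fell on each scale. S100P had 153, 182 and 102 TPM in treated and 13.8, 8.82 and 2.09 TPM in untreated cells (change 4.22 ± 0.86, adjusted p = 0.00643). S100A10, a partner of annexin A2, had 237, 260 and 206 TPM in treated and 451, 504 and 579 TPM in untreated cells (change -1.12).

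Of 19 genes of ERK output and feedback, 3 rose and 1 fell as deposited, and 4 rose and none fell after scaling. That was 1 higher without untreated replicate 1 or 2, and none lower without any 1 of the 6 libraries. DUSP5, a nuclear phosphatase of ERK, had 19.8, 24.8 and 26.5 TPM in treated and 3.87, 4.12 and 7.74 TPM in untreated cells (change 2.03 ± 0.31, adjusted p = 0.000746). DUSP6, its cytoplasmic counterpart, lay at 16.4 to 23.3 TPM in treated and 23.1 to 29.7 TPM in untreated cells (adjusted p = 0.254). Of 16 AP-1 and immediate early genes, MAFF rose as deposited, at 22.7 to 26.9 TPM in treated and 8.14 to 14.2 TPM in untreated cells (change 1.10), and 4 rose after scaling. Of 8 genes of the MYC, MAX and MXD network, 1 rose and 1 fell on each scale. MXD1, an antagonist of MYC, had 19.9, 17.9 and 16.2 TPM in treated and 4.18, 1.48 and 3.03 TPM in untreated cells (change 2.35, adjusted p = 0.00443). MXD3, of the same family, was the fall. Its call was lost without treated replicate 1 (adjusted p = 0.0661) or 3 (0.0611), or untreated replicate 1 (0.0518) or 2 (0.0805).

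Damage and death genes were split too. Of 24 p53 targets, 3 rose and 3 fell (5 and 2 after scaling). PLK3, a stress-responsive kinase, lay at 14.4 to 20.5 TPM in treated and 3.49 to 6.23 TPM in untreated cells (change 1.59, adjusted p = 0.00103). PLK2, of the same family, fell to 40.4, 40.9 and 51.7 TPM in treated cells, against 126, 151 and 146 TPM in untreated cells (change -1.66 ± 0.21, adjusted p = 0.000122). BAX, a pore-forming protein of apoptosis, had 0.76, 0 and 0.74 TPM in treated and 4.54, 6.38 and 4.08 TPM in untreated cells (change -2.03, adjusted p = 0.00705). GADD45A, a stress sensor that slows the cycle, had 201, 207 and 202 TPM in treated and 39.7, 33.8 and 43.3 TPM in untreated cells, 5.22-fold apart by their means (change 2.36 ± 0.32, adjusted p = 0.000269). Of the 3 genes measured on the GADD45 list, GADD45A and GADD45B rose on both scales. The remaining one, GADD45GIP1, encodes a GADD45-interacting protein, is not itself a GADD45 gene, and was not called. The 2 calls became 1 without treated replicate 2 or 3 or untreated replicate 2. Of 16 BCL2 family genes, 2 fell and none rose as deposited, while 2 rose and 1 fell after scaling. The 2 that fell became 1 without treated replicate 2 or 3 or untreated replicate 1 or 3.

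Some of the largest changes fell outside these lists. IGFBP3, which binds insulin-like growth factors, had 21.5, 30.2 and 20.6 TPM in treated and 1.53, 1.07 and 1.11 TPM in untreated cells (change 3.47 ± 0.42, adjusted p = 0.000104). SPRR2D, a protein of the cornified envelope of skin, lay at 13.99 to 19.6 TPM in treated and 0 to 0.99 TPM in untreated cells (change 3.81). LCN2, a carrier of iron-binding siderophores, had 14.3, 11.1 and 5.90 TPM in treated and 0.79, 0 and 0 TPM in untreated cells (change 3.16). LURAP1L, OSCAR, BEX2 and the noncoding LINC00520 were further large rises, with changes of 3.63, 3.55, 3.09 and 3.57. IL7R, the interleukin-7 receptor, fell to 10.2, 9.60 and 3.06 TPM in treated cells, against 63.6, 79.4 and 66.1 TPM in untreated cells (change -3.16 ± 0.35, adjusted p = 4.39e-05). CPA4, a carboxypeptidase, lay at 0.79 to 1.26 TPM in treated and 12.4 to 13.1 TPM in untreated cells (change -2.79), and TMEM14A at 0.34 to 5.36 TPM in treated and 17.7 to 22.6 TPM in untreated cells.

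Of 60 small nucleolar RNA genes tested, 2 were called lower and 0 higher. Over all 14936 genes 5.68% were called lower and 1.95% higher, so these counts do not set the class apart. The rule for named genes also took some small noncoding RNAs, and how fully a poly(A)-primed library captures them is unknown. SCARNA22 had 69.1, 72.8 and 112 TPM in treated and 877, 700 and 646 TPM in untreated cells (change -3.14 ± 0.40, adjusted p = 0.00014). The Y RNA gene RNY4 was listed at 0 in all 3 treated libraries, against 35.0, 13.9 and 46.1 TPM in untreated cells (adjusted p = 0.00186). SNORA62 was likewise listed at 0, against 8.17, 12.98 and 12.7 TPM, but this call (adjusted p = 0.0497) was lost after scaling (0.053) and when any of the 6 libraries was left out (up to 0.142).

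The same dose at 24 h, against its own untreated libraries, gives a point of comparison. The change differed between 48 h and 24 h for 5 of the 14936 genes (0.0335%) in the same fit, and for 3 after scaling. HSPA5 had 220, 240 and 273 TPM in treated and 172, 240 and 137 TPM in untreated cells at 24 h, a change of 0.45 ± 0.17, against 2.07 ± 0.17 at 48 h. CAV1 changed by -0.47 ± 0.13 at 24 h and -1.95 ± 0.13 at 48 h. CKS1B, a partner of the cyclin-dependent kinases, changed by 0.33 ± 0.14 at 24 h and -0.92 ± 0.14 at 48 h. The adjusted p of the difference was 0.0217 for HSPA5, 0.00465 for CAV1 and 0.0361 for CKS1B. After scaling CKS1B no longer passed (adjusted p = 0.0887), and no gene did when only the 4 groups of these comparisons were fitted. Another of the 5, ENSG00000252236, a small nucleolar RNA, was listed at 0 in all 6 libraries at 48 h. It had 4.22 to 8.05 TPM in untreated cells at 24 h and was listed at 0 in those treated.

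For most genes named above the difference between the times did not pass the test, which does not show that the changes were alike. DDIT3 changed by 3.01 at 24 h and 4.18 at 48 h (adjusted p of the difference = 0.363), and TRIB3 by 2.06 and 2.23 (0.869). TYMS changed by -0.51 at 24 h and -2.30 at 48 h (adjusted p of the difference = 0.0793), and RRM2 by -0.70 and -2.47 (0.177). The list medians at 24 h and 48 h were 1.499 and 1.65 for the ATF4 and CHOP genes, -0.40 and -1.24 for replication genes and -0.54 and -1.19 for kinetochore and cytokinesis genes, against 0.00 and -0.15 over all genes.

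**Figure D4:**
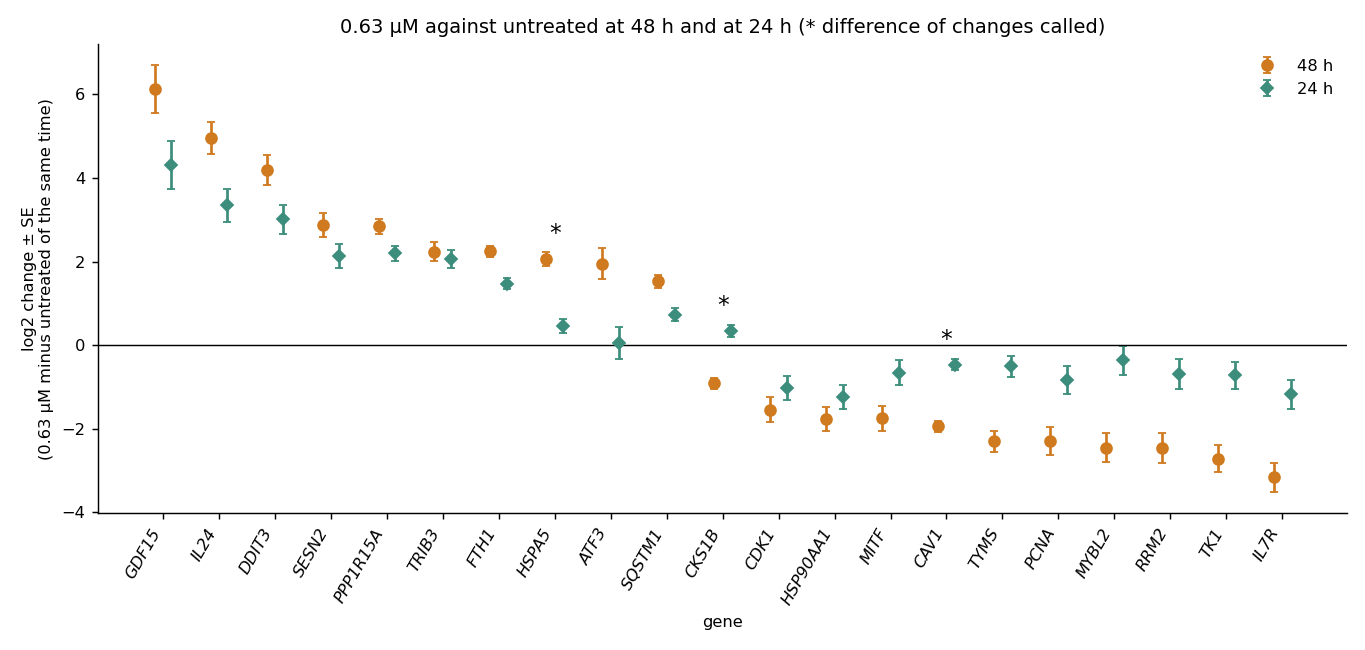
Log2 change ± SE (vertical axis, 0.63 µM minus untreated of the same time) of 21 genes at 48 h (circles) and 24 h (diamonds), each time with 3 treated and 3 untreated libraries; stars mark genes whose changes differed. DDIT3 stands at 4.18 and 3.01, and HSPA5, starred, at 2.07 and 0.45.

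**Figure D5:**
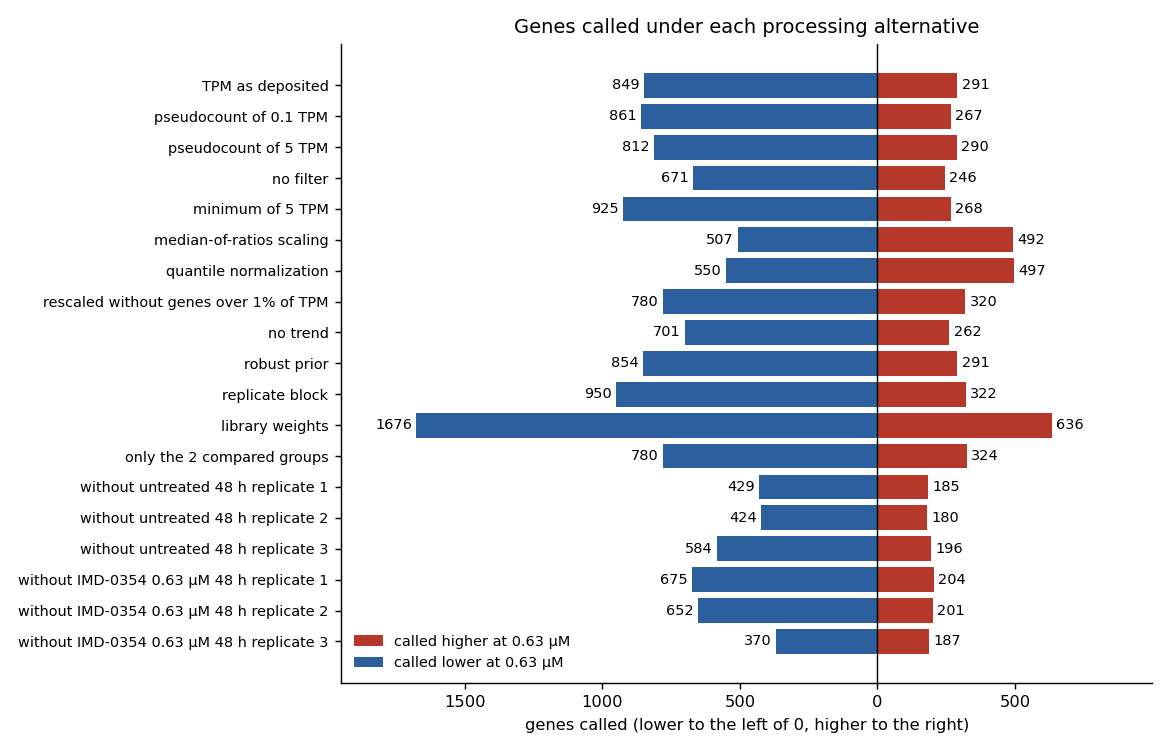
Number of genes called higher (red) and lower (blue) at 48 h under each way of processing the values, with counts from 0 on the axis. As deposited the counts are 291 and 849, and after median-of-ratios scaling they are 492 and 507.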

How the data were processed

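The authors' deposited table gave TPM per gene for 18 QuantSeq 3' libraries, each summing to 1000000. TPM keeps no read depth, which is therefore unknown. Per the submitters' processing notes, the tools were cutadapt 1.18, STAR 2.7, RSEM 1.3.1 and DESeq2, with roles not stated; the genome build is not given in the sources used here. Symbols matched 41209 of 60504 identifiers.

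Genes that reached 1 TPM in 3 or more libraries were tested with limma 3.58.1 in R 4.3.3 on log2(TPM + 1), with 6 group means over all 18 libraries, a mean-variance trend and Benjamini-Hochberg adjustment over 14936 genes. The pseudocount understates changes of low genes. The same fit was repeated after median-of-ratios scaling. Named genes were the 12 largest rises and falls by log2 change among called genes with a symbol, a mean of at least 5 TPM in 1 group and no overlap, up to 4 called members per list with the largest change (2 where fewer than 2 were called), the 5 largest differences between times each way, and a fixed set of pathway genes; not all are described, and some are not reported here. AXL, PMEL, TYR, DCT and other cell markers were read as marker lists. The lists were chosen with earlier results of these data known. Promoters came from RefSeq (GRCh38.p14).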

Additional observations from a re-analysis of the deposited data

Results flagged for a closer look

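The change at 0.63 µM against untreated cells differed between 48 h and 24 h for HSPA5, CAV1 and CKS1B, by a test of the difference itself in limma. The change at 48 h minus that at 24 h was 1.62 on the log2 scale for HSPA5, -1.48 for CAV1 and -1.25 for CKS1B.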

How the results depend on the processing

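The count of 1140 genes called at 48 h (291 higher, 849 lower) moved by over 1.5 times with library weights, to 2312 (636 and 1676). Leaving out 1 of the 12 libraries at 0.63 µM or untreated, at 48 h or 24 h, gave totals of 557 to 1542, with 180 to 387 higher and 370 to 1155 lower. Median-of-ratios scaling gave 492 higher and 507 lower, and quantile normalization 497 and 550. The libraries at 0.32 and 1.25 µM were not left out. Of 110 counts of list members called higher or lower, 13 to 25 moved by over 1.5 times when 1 of the 48 h libraries was left out, 25 of them without treated replicate 3 or without untreated replicate 2. The 5 genes whose change differed between 48 h and 24 h became 8 with no filter, 3 with median-of-ratios scaling, quantile normalization or rescaling without genes over 1% of TPM, 2 with no trend, 151 with library weights and 0 with only the 4 groups fitted, and 2 to 18 when 1 library was left out. The causes were not tested. With the replicate block 1272 genes were called (322 higher, 950 lower). Same-numbered treated and untreated libraries deviated with correlations of 0.0586, -0.0158 and 0.0785. Those with different numbers gave -0.103 to 0.0552. With 3 libraries a group, these values cannot decide whether the samples were paired. TPM keeps no depth, so counting error at low levels is unknown.

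Some genes that were not called changed sign, with log2 changes as follows. CHUK stood at 0.0853 after median-of-ratios scaling and 0.0589 after quantile normalization, and RELA at 0.0777 and 0.0578 under these 2 scalings. MLANA stood at 0.00094 after quantile normalization and 0.0061 with library weights. BRAF stood at 0.00064 with a pseudocount of 5 TPM, 0.158 after median-of-ratios scaling, 0.117 after quantile normalization and 0.0282 after rescaling without genes over 1% of TPM. Leaving out 1 library gave -0.118 to 0.548 for IKBKB, -0.159 to 0.0076 for CHUK, -0.527 to 0.158 for MLANA, -0.0288 to 0.364 for CCND1 and -0.194 to 0.2002 for BRAF.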

Other observations

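Several further gene groups gave few or no calls at 48 h. None of 30 nucleolar ribosome biogenesis genes and 15 genes of MHC class I presentation was called in limma on either scale. The same held for 11 FOXO and AMPK starvation genes and 20 genes of mitochondrial biogenesis and fission. Of all 14936 genes, 1140 were called as deposited (1.95% higher and 5.68% lower). Lists this small would hold few calls at those shares, so the absence of calls does not set them apart. The median changes of these lists as deposited were, in that order, -0.33, -0.33, -0.01 and -0.24, beside -0.15 over all genes. Of 17 interferon response genes 1 fell as deposited, and 1 rose and 1 fell after scaling.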
